A study of Mus musculus with 1600 samples.

Results

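Cells rich in scleraxis mRNA from the mouse hind limb were compared between 2 embryonic stages, E12.5 and E15.5, named by the day of gestation. A cell was taken as Scx-high when it had at least 1000 detected genes and at least 200 counts of Scx per 1000000 counts of the cell (CPM), so the members were chosen by their measured Scx level. This rule gave 90 cells of the 358 kept at these stages, comprising 64 of 158 at E12.5 with 26 of 200 at E15.5, from 480 cells at 3 stages in all. Both groups came from C57BL/6 embryos carrying an SCX-GFP transgene, so there was no group without it, and the labels name neither the promoter of the transgene nor a sort for GFP. Cells were isolated with the Fluidigm C1, which traps single cells on a microfluidic chip. Limbs of siblings from 1 litter were combined, so each stage was 1 sample, no test between stages was possible, and every difference below compares these 2 samples. The comparison asks how cells that express Scx differ between the progenitor stage and the later limb, when tendons are being laid down.

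Scleraxis is a basic helix-loop-helix transcription factor that marks the progenitors of tendon and ligament and stays on in the cells that form them. Tendon cells, or tenocytes, secrete type I collagen, which is trimmed outside the cell and packed into parallel fibrils. Small leucine-rich proteoglycans and fibril-associated collagens bind the fibril surface and set its width. Tenomodulin, a membrane glycoprotein encoded by Tnmd, is a late marker of the lineage and is known to depend on scleraxis. Scx is also expressed early in cells that share Sox9, the transcription factor of cartilage, where tendons join the skeleton.

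The Scx-high cells held a median of 277608 counts at E12.5 (20381 to 739651) and 167834 counts at E15.5 (46069 to 507282), with medians of 4867 and 4244 detected genes. They lay in 9 library pools of 40 cells, of which 4 to 7 were E12.5 and 8 to 12 were E15.5. Pools 4 to 7 held 14 to 17 Scx-high cells each, pools 9 and 11 held 5 and 9, and pools 8, 10 and 12 held 4 each. Pools are a technical split of 1 sample and not replicates. Counts were summed over the cells of a stage and given as CPM, with exact Poisson 95% intervals, which cover counting error only. A gene was called higher or lower at E15.5 when the log2 ratio of CPM, with 5 added to each, reached 1 in size and pools 9 and 11 both lay beyond all of pools 4 to 7. A second, stricter count asked the same of all 9 pools. Folds are plain ratios of CPM, and a stage with 0 counts was given 3 counts over the stage, which makes its fold a lower bound. This bound covers counting error only and not the small number of cells. Cells of other types and less RNA per cell cannot be told apart from lower expression in such sums.

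The values of Scx chose the cells and are given as a description. Per cell, Scx ranged from 202 to 23993 CPM with a median of 1019 at E12.5, and from 213 to 8879 CPM with a median of 505 at E15.5. Summed over cells E12.5 held it at 1835 CPM (1816 to 1854), and E15.5 at 1679 CPM (1646 to 1713). Cells with at least 1000 CPM made up 33 of 64 and 6 of 26. The top cell alone held 28.2% of the Scx counts at E12.5 and 31.2% at E15.5, and without pool 11 the sum at E15.5 was 2.10-fold below that of E12.5. The 3 cells just inside the minimum had 202, 206 and 206 CPM at E12.5 and 213, 219 and 219 CPM at E15.5. The 3 just outside had 194, 193 and 191 CPM, and 189, 178 and 176 CPM. Scx lies on chromosome 15 of GRCm38, from 76457452 to 76459458 on the plus strand. Scx-high cells were 40.5% of kept cells at E12.5 (exact Clopper-Pearson 95% interval 32.8% to 48.6%) and 13.0% at E15.5 (8.67% to 18.5%).

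The name tendon cell was checked against other tendon markers and against Sox9. Tnmd reached 200 CPM in 0 of 64 Scx-high cells at E12.5 (a count of 0 is taken to allow 3 cells, or 4.69%, and the exact interval ends at 5.60%) and in 10 of 26 at E15.5 (38.5%, 20.2% to 59.4%). Sox9 reached 200 CPM in 19 of 64 and in 5 of 26 cells, and 1 cell of E15.5 held both genes at that level. Neither gene reached it in 45 of 64 and 12 of 26 cells. Of further tendon markers, Fmod reached 200 CPM in 0 of 64 and 9 of 26 cells, and Thbs4 in 0 and 5. Mkx did so in 3 and 4 cells, and Kera in 5 and 6. Scx-high cells were thus not of 1 kind at either stage, and they are called by their rule here.

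Of 10067 genes with a count in at least 10 Scx-high cells, 394 were called higher at E15.5 (3.91% of those tested) and 800 lower (7.95%). The 10 cells could come from either stage, of 64 and 26 cells, so a gene read at only 1 stage entered more easily at E12.5. Genes with 0 counts at E15.5, such as Hoxd9, Lin28b, Trim71, Cxadr and Bmpr1b, entered through E12.5 alone, and Htra3 entered through E15.5 alone. With all 9 pools apart, 106 were higher (1.05%) and 407 lower (4.04%). By the size of the log2 ratio alone these were 995 (9.88%) and 1716 (17.0%). The median gene had a log2 ratio of -0.15, and -0.01 when the stages were scaled by the median of gene ratios in place of total counts. The shares of 3.91% and 7.95% are the background for every list below, and a list near them gives no result of its own. They hold with all pools in. Without pool 9 the calls were 643 higher and 1286 lower of 9932 tested genes, and 678 and 1374 of 9854 without pool 11.

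**Figure D1:**
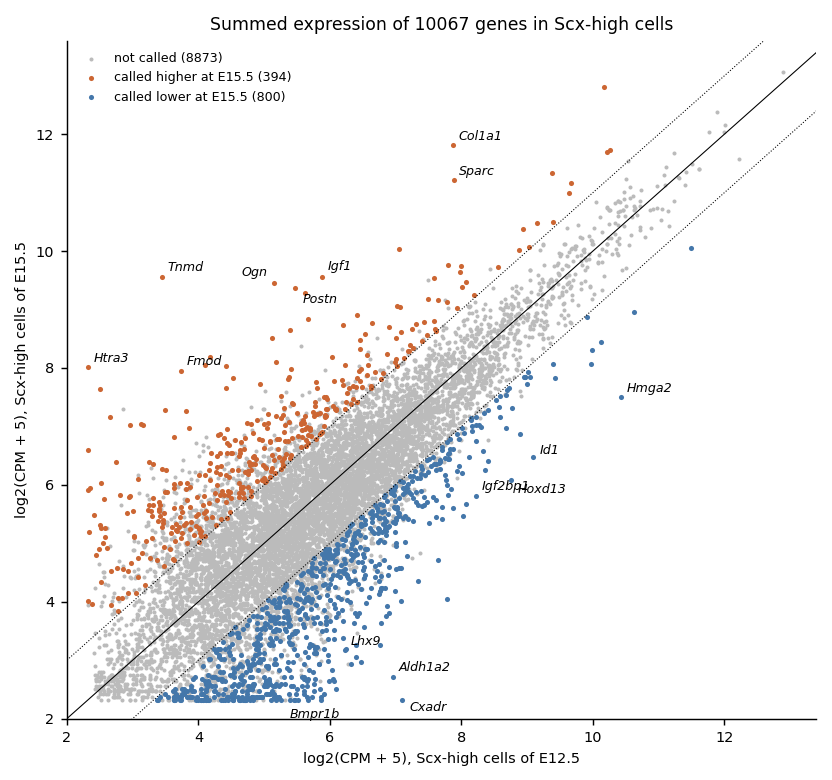
Summed expression of 10067 genes in Scx-high cells, as log2(CPM + 5) at E12.5 on the horizontal and E15.5 on the vertical axis. Each point is a gene, orange if called higher at E15.5 (394), blue if called lower (800) and grey if not called. The solid line marks equal levels and the dotted lines a log2 ratio of 1 in either direction.

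The mRNAs of matrix and surface proteins of tendon were higher at E15.5. Of 12 listed genes 8 had counts in enough cells to be tested, and 8 of these were called higher, 4 of them with all 9 pools apart, with a median log2 ratio of 3.80 against -0.15 for all genes. The background share of genes called higher was 3.91%. Tnmd was at 18.4, 0, 0 and 0.654 CPM in pools 4 to 7 and at 967, 261, 122, 785 and 1437 CPM in pools 8 to 12. All 5 pools of E15.5 lay above all 4 of E12.5. Tnmd summed to 5.93 CPM (4.91 to 7.09) and 751 CPM (729 to 774), which was 127-fold higher at E15.5. At E12.5 a single cell gave 70.6% of its 119 counts, and without pool 4 only 4 counts remained at that stage and the ratio was 2598. Tnmd exceeded 100 CPM in 1 of 64 and 12 of 26 Scx-high cells, and in 13 of the 174 other kept cells of E15.5.

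Thbs2, an antiangiogenic thrombospondin of the tendon matrix, lay at 23.9, 11.1, 13.3 and 14.1 CPM in pools 4 to 7 and at 423, 65.2, 298, 176 and 365 CPM in pools 8 to 12. The pools of the stages did not overlap, and the sums of 16.3 CPM (14.6 to 18.2) and 256 CPM (243 to 270) gave a ratio of 15.7. Htra1, a secreted serine protease, went from 44.2 to 620 CPM, with pools at 20.0 to 63.1 CPM and 167 to 890 CPM. Col12a1, a collagen that coats type I fibrils, went from 13.2 CPM (11.6 to 14.8) to 287 CPM (274 to 302), 21.9-fold, and 43.7-fold without pool 4. Its pools at E15.5 held 192 to 448 CPM, above the 2.29 to 27.7 CPM of E12.5. These 4 genes were the ones separated in all 9 pools.

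Fmod, which encodes the fibril proteoglycan fibromodulin, was at 5.76, 12.7, 21.8 and 1.31 CPM in pools 4 to 7 and at 385, 268, 14.4, 134 and 371 CPM in pools 8 to 12. Only pool 10 overlapped the earlier stage. Fmod summed to 8.37 CPM (7.15 to 9.73) and 242 CPM (230 to 256), 29.0-fold higher. Tnc, the stretch-related glycoprotein tenascin C, was 16.6-fold higher at 149 CPM against 8.97 CPM, with pool 10 at 0. Col14a1, another fibril-associated collagen, was at 3.69 and 127 CPM. In Col14a1, 91.9% of the E12.5 counts came from 1 cell, and without pool 6 only 6 counts remained there and the ratio was 366. Kera, the proteoglycan keratocan, was already read in the earlier cells, with 73.4 CPM (69.7 to 77.2), and the later ones had 197 CPM (185 to 208). It was 2.68-fold higher, and 4.59-fold without pool 4, which holds the cell with 49.9% of the E12.5 counts.

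Thbs4, Comp, Cilp and Cilp2 had counts in too few cells to be tested. Thbs4, a thrombospondin of mature tendon, had 0 counts in the 64 cells of E12.5 and 1620 in 9 of the 26 cells of E15.5. That was 282 CPM (268 to 296), at least 1887-fold higher. By pool it stood at 416, 11.9, 0, 604.5 and 179 CPM, so pool 10 had none. Cilp, a matrix protein of cartilage and tendon, had 0 counts at E12.5 and 497 in 5 cells at E15.5, at 86.5 CPM.

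**Figure D2:**
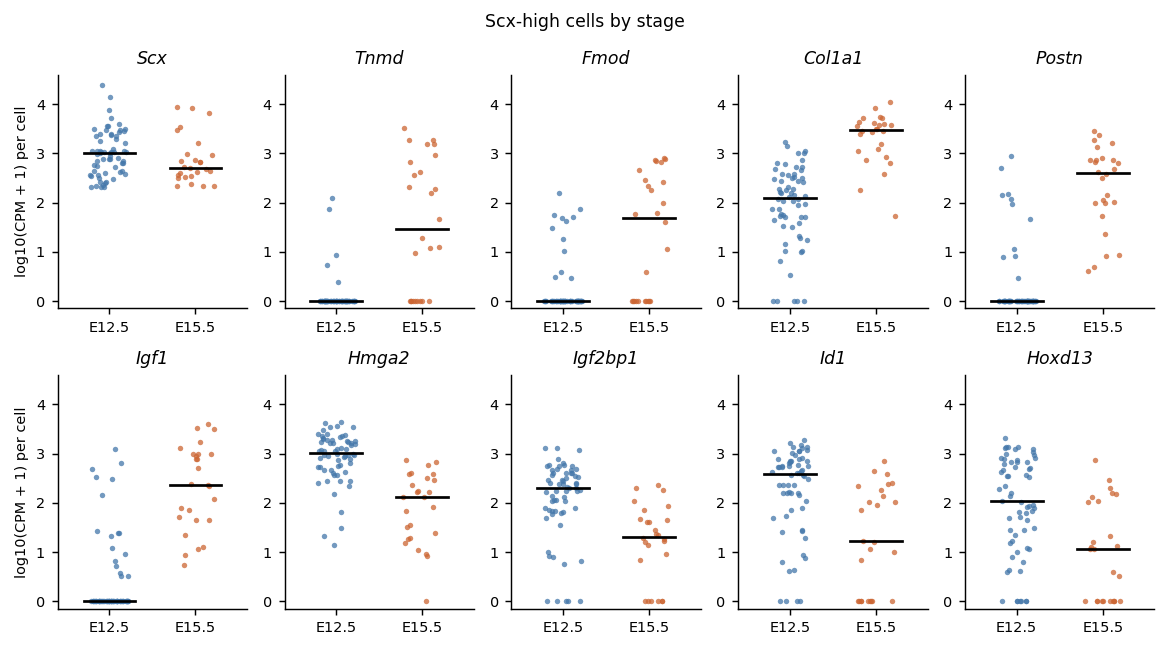
Expression of 10 genes in each Scx-high cell, as log10(CPM + 1), for 64 cells of E12.5 (blue) and 26 of E15.5 (orange), with black bars at the medians. Scx chose the cells and starts at 200 CPM in both stages; the medians of Tnmd, Fmod, Col1a1, Postn and Igf1 are higher at E15.5, and those of Hmga2, Igf2bp1, Id1 and Hoxd13 are lower.

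Scleraxis binds E-boxes, sequences of the form CANNTG, which read the same on both strands. The 250 bases before the RefSeq start of Tnmd, Thbs2 and Fmod (GRCm38.p6) are shown because these genes went with the later stage. They run 5′ to 3′ on the strand of the gene, with E-box matches in capitals. Tnmd is at chrX:133850758-133851007 on the plus strand, Fmod at chr1:134037004-134037253 on the plus strand and Thbs2 at chr17:14694263-14694512 on the minus strand.
Tnmd: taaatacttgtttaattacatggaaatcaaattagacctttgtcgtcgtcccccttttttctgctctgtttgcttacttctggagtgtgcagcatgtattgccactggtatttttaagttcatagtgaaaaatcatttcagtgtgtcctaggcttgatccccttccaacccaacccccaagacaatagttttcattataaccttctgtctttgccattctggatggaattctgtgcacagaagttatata
Fmod: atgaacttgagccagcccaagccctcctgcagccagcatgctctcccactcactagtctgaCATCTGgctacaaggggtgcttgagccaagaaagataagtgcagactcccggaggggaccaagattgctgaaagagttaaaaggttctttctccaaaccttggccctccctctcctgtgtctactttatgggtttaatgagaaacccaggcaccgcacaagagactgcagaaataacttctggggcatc
Thbs2: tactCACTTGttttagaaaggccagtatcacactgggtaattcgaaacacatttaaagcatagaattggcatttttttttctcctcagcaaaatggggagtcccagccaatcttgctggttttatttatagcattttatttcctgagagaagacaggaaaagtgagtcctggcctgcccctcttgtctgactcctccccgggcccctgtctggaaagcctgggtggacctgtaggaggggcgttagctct

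The match of Fmod begins 189 bases and that of Thbs2 246 bases before the start, and these letters do not occur in the window of Tnmd. An E-box match lay in the same window of 66.0% of 27025 RefSeq promoters and 54.4% of the 7216 tested genes found there. It lay in 50% of 288 genes called higher, 54.4% of those called lower, and 3 of the 6 called tendon genes found. A match of such short letters is a description of the sequence and not of binding.

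The mRNAs of transcription factors of the tendon lineage differed less between the stages. Of 7 listed regulators 6 were tested, 1 was called higher and none lower, with a median log2 ratio of 0.52. Mkx, the homeobox factor Mohawk that acts in tendon fibril growth, was at 74.5, 6.98, 44.2 and 38.1 CPM in pools 4 to 7 and at 125, 41.5, 69.3, 153 and 68.0 CPM in pools 8 to 12. The pools overlapped, and the sums of 42.7 CPM (39.9 to 45.7) and 96.9 CPM (89.1 to 105) gave a log2 ratio of 1.09 without a call. Without pool 9 Mkx was called, and without pool 4 its ratio was 3.41-fold. Egr1, a mechanically induced zinc finger factor of tendon, was at 1449 and 1735 CPM with overlapping pools. Eya2, a transcriptional cofactor, was called higher at 35.5 CPM against 9.02 CPM, and lost the call without pool 9, where the log2 ratio was 0.95. The related Eya1 had 266 counts in 9 cells at E12.5 and 0 at E15.5.

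Genes of fibrillar and fibril-associated collagens were higher as a group. Of 12 listed genes 10 were tested and 10 were called higher, 7 of them with all 9 pools apart, with a median log2 ratio of 2.23. Col1a1, one chain of type I collagen, was at 240, 164, 316 and 227 CPM in pools 4 to 7 and at 3462, 1959, 3999, 3652 and 5134 CPM in pools 8 to 12. The lowest pool of E15.5 was several times above the highest of E12.5. Col1a1 summed to 228 CPM (222 to 235) and 3596 CPM (3547 to 3645), a 15.7-fold difference, and the cell medians were 122 and 2990 CPM. Col1a2, the other chain, was higher to a lesser degree, 6.21-fold, from 1148 CPM (1133 to 1163) to 7131 CPM (7062 to 7200). Col1a2 was read in all 64 cells of E12.5, with pools at 862 to 1761 CPM, against 3493 to 8986 CPM at E15.5. Col3a1, the collagen of thin fibrils, was 2.81-fold higher at 2280 CPM against 810 CPM. Col5a1, which nucleates fibrils, was at 216 and 864 CPM, and Col6a1, of the beaded filaments around cells, at 61.6 and 213 CPM.

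Most tested genes for proteoglycans of the fibril surface were called higher. Of 11 listed genes 8 were tested and 6 called higher, 3 with all 9 pools apart, with a median log2 ratio of 3.20. Fmod and Kera are in this list and in the tendon list. Dcn, which encodes decorin, had 187, 52.8, 172 and 104 CPM in pools 4 to 7 and 559, 2103, 813, 1174 and 428 CPM in pools 8 to 12. The pools did not overlap, although single cells did, from 0 to 2918 CPM at E12.5 and 0 to 6431 CPM at E15.5. The sums of 127 CPM (122 to 132) and 1048 CPM (1022 to 1075) were 8.25-fold apart. Bgn, which encodes biglycan, was 12.1-fold higher at 359 CPM against 29.6 CPM. Ogn, the proteoglycan osteoglycin, was 22.9-fold higher at 698 CPM against 30.4 CPM, and 50.0-fold without pool 4. Aspn, which encodes asporin, was read in 1 cell at E12.5 and 13 at E15.5, at 3.94 and 125 CPM. Without pool 11 Aspn was not called, since too few cells had a count. Without pool 4 Aspn had 0 counts at E12.5. Lum, which encodes lumican, reached 724 CPM against 175 CPM without a call, because pool 9 at 285 CPM lay below pool 6 at 308 CPM. Lum was called when either of those pools was left out.

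**Figure D3:**
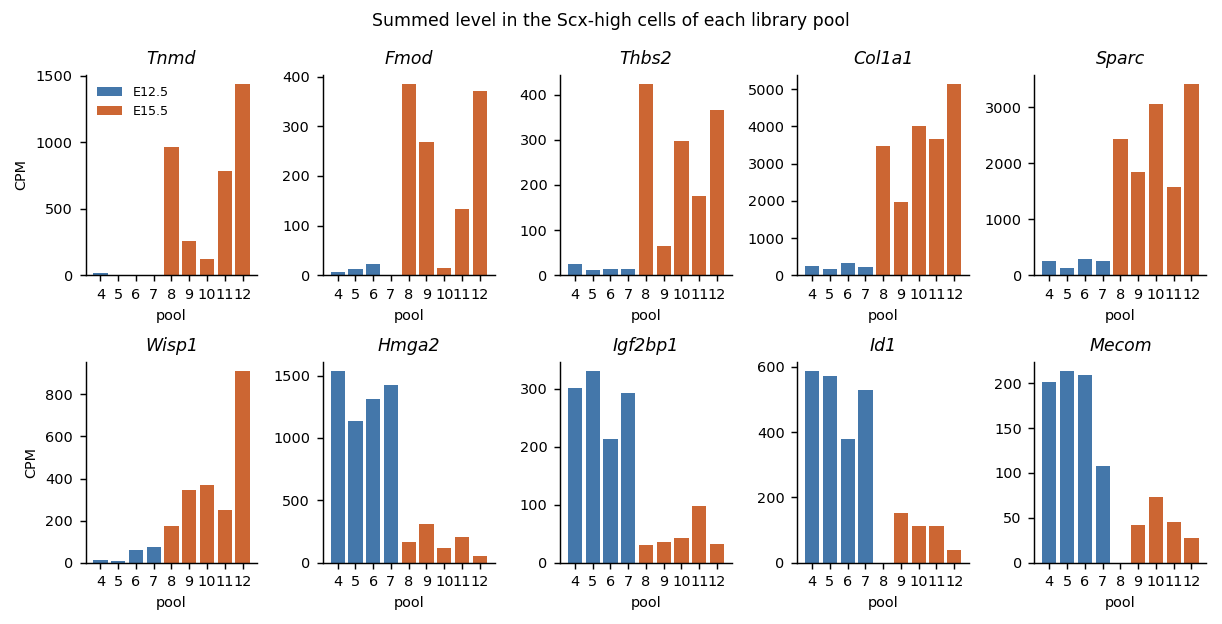
Summed level of 10 genes in the Scx-high cells of each library pool, in CPM on axes that start at 0, for pools 4 to 7 of E12.5 (blue) and 8 to 12 of E15.5 (orange). Fmod overlaps between the stages in pool 10; the other 9 genes are apart in all 9 pools, and Id1 and Mecom are at 0 in pool 8.

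Genes for proteins that make and move collagen were higher in part. Of 22 tested genes of collagen processing and crosslinking 7 were called higher and none lower, with a median log2 ratio of 1.28, and of 20 genes of the secretory pathway 6 were called higher, with a median of 0.55. Of the processing genes 11 were higher without pool 9, and 2 were called lower without pool 11. Sparc, a collagen-binding glycoprotein, was at 258, 130, 299 and 255 CPM in pools 4 to 7 and at 2443, 1850, 3058, 1579 and 3417 CPM in pools 8 to 12. Its pools did not overlap, and the sums of 232 CPM (225 to 238) and 2361 CPM (2321 to 2401) were 10.2-fold apart. Pcolce, which speeds the trimming of procollagen, was 4.50-fold higher at 429 CPM against 95.2 CPM. P4ha3, a subunit of collagen prolyl hydroxylase, was at 21.2 and 107 CPM, and its ratio fell to 2.80-fold without pool 12. Loxl1, an enzyme that crosslinks elastin and collagen, was at 76.7 and 201 CPM. Creb3l1, a transcription factor that drives secretion of collagen, was 14.7-fold higher, with 108 CPM (99.9 to 117) where E12.5 had 7.37 CPM (6.23 to 8.66), and 24.8-fold without pool 7. Its pools held 1.76 to 14.2 CPM at E12.5 and 57.5 to 147 CPM at E15.5. Kdelr3, a receptor that returns proteins to the endoplasmic reticulum, was at 34.0 and 141 CPM, and Sec23a, a coat protein of vesicles leaving it, at 63.1 and 150 CPM. Without pool 5 the log2 ratio of Sec23a was 1.00 and it was not called.

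Elastic fibre genes were mixed. Of 11 tested genes 3 were called higher, each with all 9 pools apart, and none lower, with a median log2 ratio of 0.97. The count was 2 without pools 10 or 12 and 6 without pool 9. Eln, which encodes elastin, was 8.02-fold higher at 206 CPM against 25.7 CPM, with pools at 14.2 to 42.9 CPM and 82.2 to 399 CPM. Mfap4, a microfibril protein, was 3.36-fold higher at 166 CPM against 49.4 CPM. Fbn2, the fibrillin of embryonic microfibrils, was at 517 and 1076 CPM, and lost its call without pools 4, 10 or 12, at log2 ratios of 0.91, 0.91 and 0.96.

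Genes for matricellular proteins, which sit in the matrix and act on cells, followed the collagen genes. Of 13 listed genes 10 were tested and 8 called higher, 5 with all 9 pools apart, with a median log2 ratio of 3.13. Postn, which encodes periostin, was at 58.3, 60.0, 24.2 and 10.47 CPM in pools 4 to 7 and at 1258, 1064, 144, 405 and 259 CPM in pools 8 to 12. All pools of E15.5 were above those of E12.5, and Postn summed to 39.3 CPM (36.6 to 42.1) and 653 CPM (631.98 to 674), 16.6-fold higher. It had counts in 11 of 64 and 26 of 26 cells and exceeded 100 CPM in 5 and 18. Wisp1, a secreted CCN protein, was 10.7-fold higher at 396 CPM against 37.0 CPM, and 18.7-fold without pool 7. Fn1, which encodes fibronectin, was 2.72-fold higher at 1321 CPM against 486 CPM. Thbs1, the first thrombospondin, was at 31.1 and 269 CPM, with pool 12 at 22.7 CPM inside the range of E12.5.

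Of 9 tested genes of matrix breakdown and its inhibitors 6 were called higher, 3 with all 9 pools apart, and none lower, with a median log2 ratio of 1.02. The count was 2 without pool 9, 3 without pools 5 or 11 and 8 without pool 7. Mmp2, which encodes a gelatinase, was 2.91-fold higher at 566.5 CPM against 195 CPM, with pools at 129 to 265 CPM and 420 to 803 CPM. Timp2, an inhibitor of such proteases, was 2.74-fold higher at 401 CPM against 146 CPM. Timp3 was at 143 and 309 CPM and lost its call without pools 5, 9 or 11, at log2 ratios of 0.86, 0.79 and 0.97.

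Among all genes, the largest ratios that kept the call without any 1 pool included genes of several roles. Htra3, a secreted protease related to Htra1, had 0 counts in 64 cells at E12.5 and 1451 in 18 of 26 cells at E15.5. That was 253 CPM (240 to 266), at least 1690-fold higher, with pools at 449, 13.5, 90.2, 228 and 446 CPM. Prss35, a serine protease-like protein, was 107-fold higher at 139 CPM against 1.30 CPM, and 384-fold without pool 4. Ptrf, a coat protein of caveolae, was 45.4-fold higher at 124 CPM against 2.74 CPM, and 270-fold without pool 5, with pool 12 at 8.16 CPM inside the range of E12.5. Ctsk, the collagen-cutting protease cathepsin K, was 24.0-fold higher at 151 CPM against 6.28 CPM, and 66.7-fold without pool 6. Klf2, a zinc finger transcription factor, was 21.4-fold higher at 260 CPM against 12.2 CPM, with pools at 106 to 562.2 CPM and 1.44 to 25.3 CPM.

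Genes for receptors that bind the matrix and for the contractile apparatus were called in few members, beside 3.91% higher and 7.95% lower over all tested genes. Of 10 tested adhesion receptors 1 was called higher and none lower, with a median log2 ratio of 0.22, and of 13 tested actin and contractile genes 1 was called higher, with a median of 0.18. Cd44, the receptor of hyaluronan, was 17.7-fold higher at 79.2 CPM against 4.48 CPM, and 61.4-fold without pool 7. Tagln2, an actin-binding protein, was at 23.0 and 71.5 CPM and was not called without pool 11, at a log2 ratio of 0.80. Of 12 tested genes of connective tissue fibroblasts 3 were called higher, namely Dcn, Col3a1 and Postn, which other lists above also hold. Osr2, a zinc finger factor of limb connective tissue, was at 40.5 and 35.9 CPM with overlapping pools.

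Cartilage genes did not go one way. Of 10 tested genes 2 were called higher and 1 lower, with a median log2 ratio of 0.01. Over all tested genes the shares were 3.91% higher and 7.95% lower. Sox9 was at 198, 185, 447 and 107 CPM in pools 4 to 7 and at 100, 127, 62.8, 28.3 and 239 CPM in pools 8 to 12, so the pools overlapped. It summed to 202 CPM (196 to 209) and 108 CPM (99.9 to 117) without a call, and was called lower without pool 7. Col2a1, the collagen of cartilage, was at 358 and 279 CPM without a call, and 1 cell held 29.3% of its counts at E15.5. Sox5, a partner of Sox9, was called lower, 6.91-fold, from 130 CPM (125 to 135) to 18.8 CPM (15.4 to 22.7). Pool 10 at 96.8 CPM overlapped E12.5 for Sox5, and without it the difference was 19.0-fold. Lect1, which encodes the tenomodulin relative chondromodulin, was called higher at 71.4 CPM against 6.33 CPM, from 11 and 4 cells, and was 6.51-fold higher without pool 9. Col11a1, a collagen of cartilage fibrils also found in tendon, was at 187 and 441 CPM and was not called without pool 4, at a log2 ratio of 0.94. Acan, which encodes aggrecan, had 2 counts at E12.5 and 200 at E15.5, 68.5% of them in 1 cell, and was not tested.

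Joint and bone genes gave no call with all pools in. Of 6 tested joint genes 3 were called higher without pool 11 and 1 lower without pool 9. The median log2 ratio of these 6 was 1.03, and of 3 tested bone genes it was -0.23. Gdf5, a growth factor of the joint interzone, was at 31.3 and 93.3 CPM, but 1 cell of pool 9 held 95.7% of its counts at E15.5, and without that pool Gdf5 was called lower, 17.9-fold. Without pool 11 it was called higher, 4.00-fold. Among bone genes, Runx2, the factor of the osteoblast lineage, was at 12.1 and 29.1 CPM without a call, and was called higher when pool 9 was left out. Sp7 and Ibsp, markers of later bone cells, were too sparse to be tested.

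Genes of limb bud mesenchyme were lower at E15.5 in part. Of 18 listed genes 16 were tested, and 8 were called lower, 5 with all 9 pools apart, 8 were not called and none was called higher. The median log2 ratio was -1.72, with 2 genes above 0. Mecom, a zinc finger factor of early mesenchyme, was at 202, 213, 210 and 107 CPM in pools 4 to 7 and at 0, 42.3, 73.2, 44.7 and 27.2 CPM in pools 8 to 12. No pool of E15.5 reached the lowest of E12.5, and the sums of 177 CPM (171 to 183) and 35.5 CPM (30.8 to 40.7) were 4.98-fold apart. Lhx9, a LIM factor of the distal bud, was 17.4-fold lower at 4.00 CPM (2.54 to 6.01) against 69.8 CPM (66.2 to 73.6), and 73.8-fold lower without pool 11. Mab21l2, a gene of unsettled molecular role in limb and eye, was 14.0-fold lower at 7.48 CPM against 105 CPM. Dach1, a distal limb cofactor, was at 102 and 12.53 CPM, with 62.5% of its E15.5 counts in 1 cell, and without pool 10 the difference was 127-fold. Msx1, a homeobox gene held active by BMP, was called lower at 181 CPM against 405 CPM, although 1 cell of pool 10 held 89.5% of its E15.5 counts. Without that pool Msx1 was 24.6-fold lower, and without pools 4, 8, 9, 11 or 12 it was not called, at log2 ratios from -0.89 to -0.74. Prrx1, the general mesenchymal homeobox gene, was at 754 and 456 CPM without a call, while its paralog Prrx2 was called lower, 4.17-fold, at 79.9 CPM against 333 CPM.

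Hox genes of the 5′ clusters, whose products set positions in the limb, were lower in part. Of 9 tested genes 2 were called lower, both with all 9 pools apart, with a median log2 ratio of -1.06. Without pool 9 the calls numbered 5 and the median was -1.94. Over all tested genes 7.95% were called lower with all pools in, and 1286 of 9932 without pool 9. Hoxd13, which acts in the digits, was at 486, 671, 286 and 230 CPM in pools 4 to 7 and at 0, 93.1, 111, 102 and 9.07 CPM in pools 8 to 12. Every pool of E15.5 was below the lowest of E12.5, and Hoxd13 was 6.78-fold lower at 62.7 CPM (56.4 to 69.5) against 425 CPM (416 to 434). Hoxd9 had 429 counts in 18 cells at E12.5 and 0 at E15.5, at least 40.9-fold lower. Pitx1 and Tbx4, which mark the hind limb, were at 162 and 100.4 CPM and at 96.9 and 75.0 CPM, without a call.

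Most tested heterochronic genes, which time early development, were called lower. The list covers Lin28 proteins, which block let-7 microRNAs, and growth genes that let-7 represses. Of 8 genes 7 were tested and 5 called lower, each with all 9 pools apart, with a median log2 ratio of -1.82, and the count was 3 without pool 5. Hmga2, a chromatin protein of embryonic cells and a let-7 target, was at 1533, 1135, 1312 and 1423 CPM in pools 4 to 7 and at 167, 307, 116, 201 and 55.3 CPM in pools 8 to 12. The stages were far apart in every pool. Hmga2 summed to 1372 CPM (1355 to 1388) and 176 CPM (166 to 188), 7.77-fold lower, while the cell medians were 1049 and 131 CPM. Igf2bp1, an RNA-binding protein of embryonic cells, was 5.73-fold lower at 51.2 CPM (45.5 to 57.4) against 293 CPM (286 to 301), with pools at 30.6 to 98.0 CPM and 214 to 330 CPM. Its paralogs Igf2bp2 and Igf2bp3 were not called, at 213 and 198 CPM and at 305 and 239 CPM. Hmga1 was at 495 and 225 CPM, and was not called without pool 9, at a log2 ratio of -0.87. Lin28b had 820 counts in 13 cells at E12.5, with pool 5 at 133 CPM and pool 4 at 0.16 CPM, and 0 at E15.5, at least 78.2-fold lower. Without pool 5 Lin28b had a log2 ratio of -1.71, but counts in too few cells to be tested. Trim71, an RNA-binding protein of the same pathway, had 254 and 0 counts. Without pools 4, 5 or 7 its log2 ratios were -1.56, -1.49 and -2.19, but too few cells had a count for a test.

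Other genes with the largest lower ratios had varied roles. Cxadr, a cell adhesion protein and viral receptor, had 2660 counts in 38 cells at E12.5 and 0 at E15.5, at least 254-fold lower, with pools of E12.5 at 155, 140, 205 and 70.3 CPM. Aldh1a2, the enzyme that makes retinoic acid in the embryo, was 76.7-fold lower at 1.57 CPM (0.716 to 2.97) against 120 CPM (115 to 125), and without pool 8 only 1 of its 9 counts at E15.5 remained. Plxnb1, a semaphorin receptor, had 1264 and 4 counts, at 63.0 and 0.696 CPM. Cbx2, a Polycomb protein, was 28.7-fold lower at 2.61 CPM against 75.0 CPM. Hoxa5, a Hox gene of more anterior identity, was 17.6-fold lower at 4.53 CPM against 79.5 CPM, and without pool 9 only 2 counts were left at E15.5. Hdac6, a deacetylase of tubulin, was 30.1-fold lower, and 69.5-fold without pool 10. N4bp2 was 18.8-fold lower at 11.5 CPM against 216 CPM. Without pool 4 N4bp2 was 11.8-fold lower, and without pool 10 it had 0 counts at E15.5.

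Zfp629, Atad2b, Nudt5 and Naf1 completed the 12 lower genes, at 23.0-, 13.0-, 12.6- and 28.8-fold. Leaving out 1 pool of E15.5 raised these to 87.8-fold (pool 11), 31.3-fold (pool 11), 35.4-fold (pool 12) and 50.8-fold (pool 11). Keeping the call without any 1 pool was a condition for choosing these 12 and is not a result. N4bp2 was the only 1 of them not apart in all 9 pools.

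Signalling pathways gave calls in both directions, to be read beside shares of 3.91% higher and 7.95% lower over all tested genes. In the BMP pathway, where secreted ligands act through receptors and Smads on targets such as the Id genes, 14 genes were tested, 4 called lower and 1 higher, with a median log2 ratio of -0.57. Id1, an inhibitor of helix-loop-helix factors, was at 586.4, 573.1, 380 and 531 CPM in pools 4 to 7 and at 0, 152, 112, 113 and 39.0 CPM in pools 8 to 12. The pools were apart, and the sums of 537 CPM (527 to 547) and 83.7 CPM (76.4 to 91.5) were 6.41-fold apart. Id2 was at 379 and 178 CPM and Id3 at 959 and 461 CPM, and both lost the call without pool 8, at log2 ratios of -0.95 and -0.84. Id2 also lost it without pools 7 or 9, both at -0.99. Bmpr1b, a BMP receptor, had 919 counts in 16 cells at E12.5 and 0 at E15.5, at least 87.7-fold lower, while the receptor Bmpr1a was at 140 and 116 CPM without a call. Of the ligands Bmp2 was at 75.7 and 20.0 CPM and Bmp4 at 41.0 and 90.0 CPM, neither called. Bmp2 was called lower without pool 9, at 38.4-fold, since 92.2% of its E15.5 counts came from 1 cell, and Bmp4 was called higher without pools 7 or 11. Chrd, the BMP antagonist chordin, was called higher at 21.8 CPM against 4.63 CPM, and was 11.6-fold higher without pool 4.

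In the TGF-beta pathway, which is required for tendon progenitors, 13 genes were tested, 3 called higher and 1 lower, with a median log2 ratio of -0.16. Over all tested genes 3.91% were called higher and 7.95% lower. Tgfbr2, the type II receptor, was called higher, with 125 CPM (116 to 134) where E12.5 had 35.0 CPM (32.4 to 37.7), and was 7.35-fold higher without pool 4. Its pools overlapped only in pool 8, at 60.3 CPM against 74.8 CPM in pool 4. Ltbp3, which anchors latent TGF-beta in the matrix, was 3.21-fold higher at 797 CPM against 248 CPM with all pools apart. The ligands Tgfb2, at 130 and 189 CPM, and Tgfb3, at 32.1 and 81.1 CPM, were not called, and Tgfb3 was called without pools 5 or 11, at 4.39-fold without pool 5. Skil, a repressor of Smads, was called lower at 36.0 CPM against 110 CPM. Smad7, the inhibitory Smad, was at 58.0 and 10.1 CPM without a call. It was called lower without pools 4 or 9, and its ratio was 9.32-fold without pool 10.

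Of 15 tested FGF genes 1 was called in each direction, with a median log2 ratio of 0.14. That is near the shares of 3.91% higher and 7.95% lower over all tested genes. There were 3 higher calls without pools 4 or 8 and 2 without pool 12, and 4 lower calls without pool 9 and 2 without pools 4, 7 or 11. Etv5, a target of FGF signalling, was 7.56-fold lower at 13.9 CPM against 105 CPM with all pools apart, and Fgf10, a mesenchymal ligand, was called higher at 70.8 CPM against 22.1 CPM, with pools 8 and 12 inside the range of E12.5. Of 10 tested Wnt genes 2 were called lower and 1 higher. There was 1 lower call without pools 4, 9 or 12, and there were 2 higher calls without pool 11. Lef1, a nuclear mediator of Wnt, had 651 counts at E12.5 and 5 at E15.5, 37.3-fold lower, and 2 counts remained without pool 11. Dkk3, a secreted relative of Wnt antagonists, was 6.14-fold higher at 224 CPM against 36.5 CPM, with pool 10 at 23.5 CPM.

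Of 9 tested genes of the IGF axis 2 were called higher and none lower, with a median log2 ratio of 0.75. Igf1, a growth factor that raises collagen synthesis in tendon, was at 38.6, 41.9, 60.0 and 76.4 CPM in pools 4 to 7 and at 761, 1285, 858, 290 and 699 CPM in pools 8 to 12. All pools of E15.5 lay above E12.5, and the sums of 53.9 CPM (50.8 to 57.3) and 745 CPM (723 to 768) were 13.8-fold apart. It exceeded 100 CPM in 6 of 64 and 16 of 26 cells. Igfbp7 was called higher at 41.1 CPM against 6.08 CPM, and fell to 2.99-fold without pool 9. Igf2, the imprinted fetal growth factor, was at 1443 and 2416 CPM without a call. Of 12 imprinted growth genes 3 were called higher, 5 without pool 11, and 1 lower. Plagl1, a zinc finger regulator of imprinted genes, was 4.06-fold higher at 521 CPM against 128 CPM, and Dlk1, a Notch-like inhibitor of differentiation, was 3.57-fold higher at 410 CPM against 115 CPM, both with all pools apart. H19, a noncoding RNA, was at 1189 and 3301 CPM, and Nnat, a membrane protein, was 3.07-fold lower at 222 CPM against 680 CPM.

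Calls among cell cycle genes depended on single pools. Of 19 DNA replication genes 1 was called in each direction, with a median log2 ratio of -0.53, and none of 19 mitosis genes was called, with a median of -0.58. The shares over all tested genes were 3.91% higher and 7.95% lower. Without pool 11, 4 genes of each list were called lower, and 5 of each were when every pool's highest cell was removed gene by gene. Lower calls over all tested genes rose too, to 1374 of 9854 without pool 11 and 1780 of 10067 without the highest cells. Without pool 9 the replication list had 3 lower calls, and it had 2 without pools 5, 6 or 8. Single mitosis genes were called lower without pools 4, 6 or 9. Mki67, a marker of cycling cells, was at 941 CPM (927 to 954) and 715 CPM (693 to 737), with pools at 698 to 1287 CPM and 127 to 1044 CPM that overlapped. Top2a, a topoisomerase of dividing cells, was at 1449 and 833 CPM without a call. Gins2, a subunit of the replicative helicase, was 20.0-fold lower at 2.61 CPM against 52.2 CPM. Summed over the mitosis list, single cells ranged from 74.0 to 16934 CPM at E12.5 with a median of 3793, and from 27.2 to 9228 CPM at E15.5 with a median of 2110.

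Immediate-early genes, which respond to handling and dissociation as well as to growth signals, had a median log2 ratio of 0.80 over 15 genes, with 2 called higher, both with all 9 pools apart, and none lower. The count was 1 without pools 5 or 12, 4 without pool 7 and 8 without pool 9. Fos, a subunit of the factor AP-1, was at 666 CPM (654 to 677) and 1443 CPM (1412 to 1474), and was not called without pools 5 or 12, at log2 ratios of 0.97 and 0.99. Klf2, given above, was the other. Summed over the list, the median cell of E12.5 had 3042 CPM and that of E15.5 4590 CPM, and in the other kept cells these medians were 2878 and 5241 CPM. The part of dissociation in the differences between stages was not tested. Of 7 tested heat shock genes none was called, with a median log2 ratio of -0.32, although 2 were called lower without pool 4 and 1 without pools 5, 9, 10 or 12. Of 14 genes of glycolysis and hypoxia 2 were called lower, with a median of -0.21. None was without pools 4 or 11, and 1 was without pools 8 or 9.

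The 26 Scx-high cells of E15.5 differed among themselves. Tnmd ranged from 0 to 3217 CPM with a median of 31.4, and 9 cells had no count. The 10 cells with at least 200 CPM of Tnmd came from all 5 pools and are described beside the other 16 as ranges of a single gene, with no test. Scx itself was at 2268 CPM in these 10 cells and 981 CPM in the other 16, with cell medians of 840 and 403 CPM. Counts per cell were not made equal between these sets, so the numbers of cells read below are not taken at equal depth. In summed CPM, Thbs4 was at 449 (426 to 473) in the Tnmd-rich cells and 83.4 (72.7 to 95.2) in the others. Thbs4 was read in 4 of 10 and 5 of 16 cells, with a cell median of 0 in both. Mkx was at 143 and 41.9 CPM, read in 9 and 7 cells, Col1a1 at 4867 and 2087 CPM, and Col14a1 at 204 and 36.9 CPM, read in 7 and 6 cells. Dcn, Postn and Ogn were not lower in the other cells in that way, with Dcn at 894 and 1231 CPM, Postn at 666 and 636.8 CPM, and Ogn at 692 and 705 CPM. In the medians of cells these genes were higher among the Tnmd-rich, at 942 and 59.3 CPM for Dcn and 455 and 125 CPM for Postn. Hmga2 was at 110 CPM (98.4 to 122) in the Tnmd-rich cells and 256 CPM (237 to 276) in the others. Gdf5 and Myod1 were at 0.641 and 1.28 CPM in the Tnmd-rich cells, against 203 and 44.9 CPM, and each was read in 3 of those 16 cells. The cell median of each gene was 0 in both sets, and 1 cell, at 1497 CPM, held most of the Gdf5 counts.

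**Figure D4:**
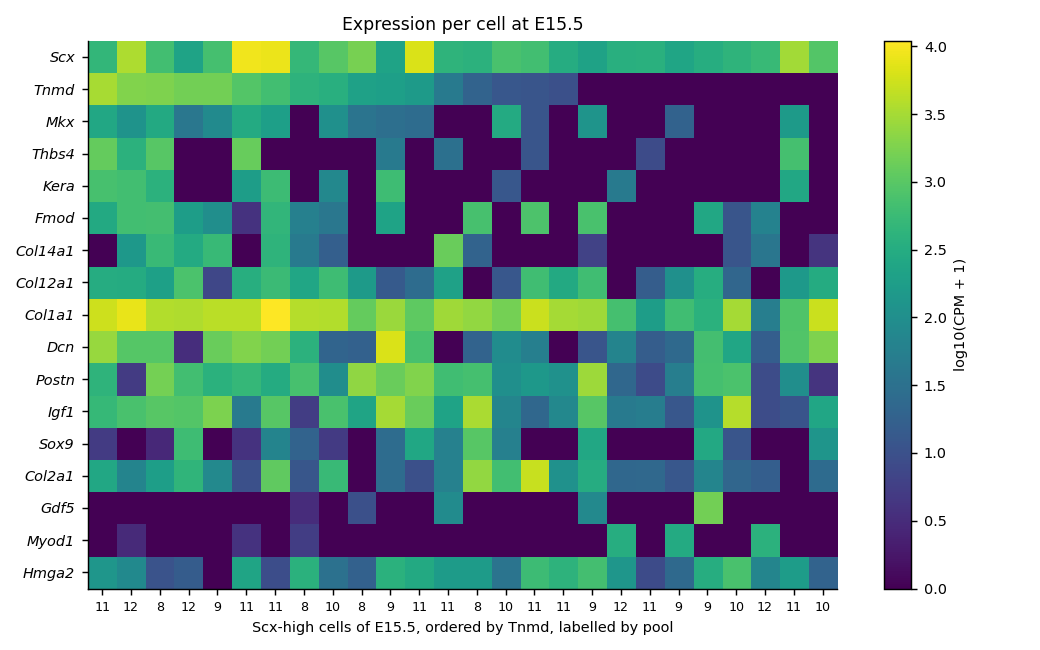
Expression of 17 genes in the 26 Scx-high cells of E15.5, as log10(CPM + 1) in colour, with 1 column per cell ordered by Tnmd and labelled by pool. Col1a1 is read in all 26 cells, Thbs4 and Tnmd share 4 cells at 200 CPM or more, and the 3 cells rich in Myod1 have no Tnmd counts.

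Cells were also classed by an early gene, Hmga2, and a late gene, Col1a1, both of which are compared between the stages above. Both were chosen with earlier results of these data known, so a stage difference in these classes is no separate result. Hmga2 at 200 CPM or more with Col1a1 below it was found in 37 of 64 cells at E12.5 and in 0 of 26 at E15.5, where the same limit of 3 cells is 11.5% and the exact interval ends at 13.2%. Col1a1 at 200 CPM or more with Hmga2 below it was found in 1 of 64 and 15 of 26 cells. Both genes reached this level in similar shares of the stages, 22 of 64 cells (34.4%) and 9 of 26 cells (34.6%). In the other kept cells the shares of E12.5 and E15.5 were 52 of 94 and 13 of 174 for Hmga2 alone, and 7 of 94 and 86 of 174 for Col1a1 alone. For both genes together they were 25 of 94 and 61 of 174.

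The same stages were compared in the kept cells below the Scx minimum, 94 at E12.5 and 174 at E15.5, in which 1098 of 12384 tested genes (8.87%) were higher and 641 (5.18%) lower by the size of the log2 ratio. The median log2 ratio of the tendon matrix list was 3.80 in Scx-high and 2.34 in other cells, that of collagens 2.23 and 1.89, and that of the fibril proteoglycans 3.20 and 2.33. The heterochronic list had -1.82 and -1.01, limb bud mesenchyme -1.72 and -1.40, and the Hox list -1.06 and -0.17. Some lists differed more in the other cells. Connective tissue fibroblast genes had 0.58 and 1.30, cartilage genes 0.01 and 0.82, and immediate-early genes 0.80 and 1.31. Single genes varied in how the sets of cells compared. Tnmd had log2 ratios of 6.11 and 3.88, and Col1a1 3.95 and 3.47, while for Postn they were 3.89 and 3.90 and for Igf1 3.67 and 4.08. For Kera they were 1.36 and -0.14, for Mfap4 1.65 and -0.02, and for Tgfbi, a collagen-binding matrix protein, 1.48 and 0.04. With 1 sample a stage the difference between these ratios was not tested, and the other cells are a mixture whose makeup also differs between stages.

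**Figure D5:**
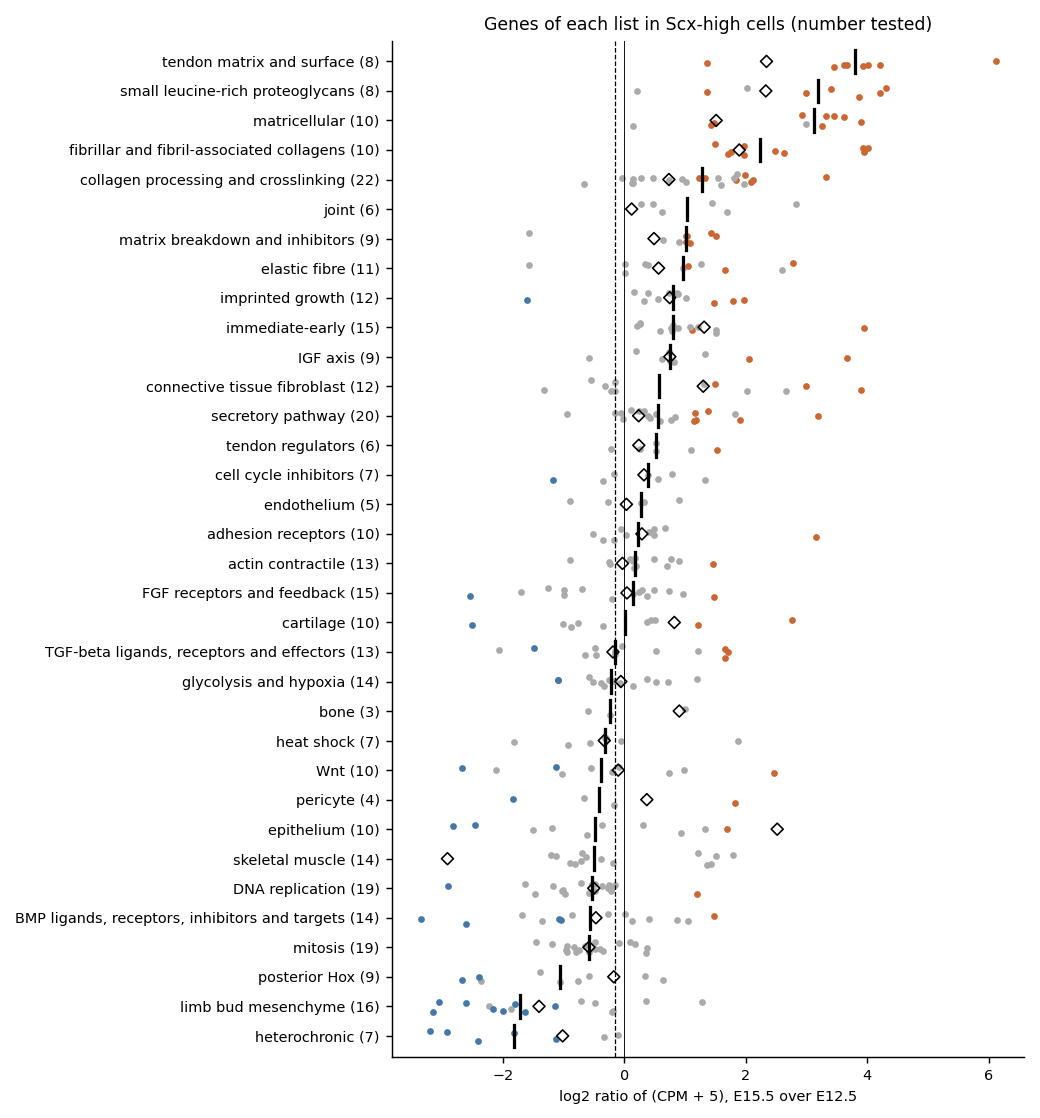
Log2 ratio of CPM + 5, E15.5 over E12.5, for the tested genes of each list in Scx-high cells, with the number tested in parentheses. Points are genes (orange called higher, blue called lower, grey not called), black bars the list medians, open diamonds the medians of the listed genes in the other kept cells, and the dashed line the median of all 10067 genes (-0.15). The tendon matrix list has the highest median (3.80) and the heterochronic list the lowest (-1.82).

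Markers of other cell types were present at different levels. The cartilage list, over 17 genes, reached 1000 CPM in 25 of 64 and 12 of 26 cells, with medians of 725 and 950 CPM and a highest cell of 14888 CPM at E12.5. Over 6 pericyte genes the medians were 71.8 and 65.9 CPM, and 1 cell of E15.5 reached 2354 CPM. Summed over 23 skeletal muscle genes, Scx-high cells ranged from 0 to 2715 CPM at E12.5 and 0 to 4960 CPM at E15.5, with medians of 35.1 and 30.7 CPM, and 2 and 3 cells reached 1000 CPM. At E15.5 Myf5, Pax3, Acta1, Mylpf and 6 more of these genes were at 0. The 3 cells of E15.5 richest in Myod1, the muscle determination factor, lay in pools 9 and 12. They had 296, 326 and 397 CPM of Myod1 and no count of Tnmd. Over 14 epithelial genes 4 and 0 cells reached 1000 CPM, with Epcam at 0 at E15.5 and Krt8 at 0 at E12.5. The sum over this list went from 166 to 104 CPM, but the median cell went from 1.78 to 57.8 CPM. The lowest cell had 0 CPM in the earlier stage and 8.06 CPM in the later one. Of the epithelial genes Krtdap was called higher, and Krt18 and Epcam were called lower. No cell reached 1000 CPM over the endothelial or immune lists, and Cldn5 was at 0 at both stages. The 8 erythroid genes were all at 0 at E12.5, whereas 5 had counts at E15.5, with a sum of 23.3 CPM and 436 CPM in the highest cell. The immune list went from a summed 0.598 to 18.3 CPM, with 11 and 7 of its 15 genes at 0. The part of these cells or their RNA in the differences between stages was not tested. When the cells with over 0.1% of counts in 1 of the muscle, epithelial, endothelial, immune or erythroid lists were left out, 58 and 23 cells remained, and 349 of the 394 higher and 687 of the 800 lower calls were shared.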

How the data were processed

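Per the labels' protocols, the Fluidigm C1 captured single hind limb cells and Nextera XT gave their libraries. The authors deposited whole read counts for each gene in each cell, and their values show no normalization. The submitters' processing notes name Bowtie2, featureCounts and mm10. Not given in the sources used here were versions, the annotation and whether molecular identifiers were used. Counts can include PCR copies. A further 1120 of 1600 samples are not analysed here.

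There were 22738 rows for 22092 symbols. For the 298 symbols with several rows, copies were dropped and rows that differed were summed. Cells with at least 1000 detected genes and Scx at 200 CPM or more were taken. No pair of cells had identical counts, no doublet caller was run, and 1 stage is 1 sample, so no p-value was computed. Intervals are at 95%, exact Poisson for sums and Clopper-Pearson for shares, and neither covers the spread between samples. Calls are defined in the results above, and the code was tested on simulated data. Tools were pandas 2.3.3, numpy 2.4.6, scipy 1.17.1 and matplotlib 3.10.9. Positions are from GENCODE M21 on GRCm38.

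The cells, the 38 gene lists and the fixed genes were chosen with earlier results of these data known. Named genes were the 12 largest log2 ratios in each direction among genes called with each pool left out in turn, read in at least 40% of cells and at 50 CPM or more in the higher stage, without ribosomal and predicted genes. Added were up to 4 called members of each list and direction at 20 CPM or more, and 33 fixed genes. Cilp, Htra1, Wisp1, Col5a1, Col6a1, Fn1, Tgfbi, Thbs1, Loxl1, Eya1, Trim71, Igf2bp2, Igf2bp3, Prrx1, Prrx2, Msx1, Bmp2, Bmp4, Bmpr1a, Smad7, Runx2, Myod1 and Igf2 were named after their values were seen, as were single markers of other cell types. Alternatives tried were equal weight of cells, other Scx minimums, thinning to 50000 counts, other pseudocounts, no filter, another scaling, each pool left out, the highest cells left out, other pool conditions, 2000 detected genes, and the removal of cells with over 1% or, added after seeing the data, over 0.1% of counts in the muscle, epithelial, endothelial, immune or erythroid list.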

Additional observations from a re-analysis of the deposited data

Results flagged for a closer look

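Among the named genes, 3 had log2 ratios past 1 in opposite directions in Scx-high cells and in the other kept cells of the same stages. Gdf5 had a log2 ratio of 1.44 in Scx-high and -1.58 in other cells, with 95.7% of its E15.5 counts in Scx-high cells from 1 cell. Naf1 had -3.20 and 1.07, and Osr1 had -1.32 and 1.20. Only Naf1 was also called by its pools in Scx-high cells. With 1 sample a stage, the differences between the sets of cells were not tested.

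The stage labelled E10.5 entered no comparison, and it held 10 Scx-high cells of 119 kept (8.40%, 4.10% to 14.9%). Their Scx summed to 472 CPM. Tnmd, Mkx, Kera, Fmod, Thbs4, Postn and Dcn had 0 counts in these 10 cells. Hmga2 was at 1481 CPM (1438 to 1524), Lin28b at 252 CPM and Sox9 at 142 CPM. Pitx1, a hind limb gene, had 0 counts, and Tbx5, a forelimb gene, had 28 counts in 8 cells, at 9.00 CPM. The label of that stage names the hind limb. These values come from 10 cells chosen by Scx, and the limb of origin was not tested.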

How the results depend on the processing

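Higher and lower calls numbered 394 and 800. They were 139 and 344 with an Scx minimum of 100 CPM, and 1305 lower at 500 CPM. Thinning to 50000 counts gave 190 higher, a pseudocount of 20 CPM 455 lower, removal, gene by gene, of every pool's highest cell 193 and 1780, the ratio alone 995 and 1716, and all 9 pools apart 106 and 407. Without cells over 0.1% in a muscle, epithelial, endothelial, immune or erythroid list, added after seeing the data, 6.3e+02 (rounded) were higher. Leaving out each pool gave 404 to 678 higher and 845 to 1374 lower, the most without pool 11. Without pool 9 they were 643 and 1286, and without either pool the condition at E15.5 rests on 1 pool, so fewer genes fail it. The cause of the other shifts was not tested. Under the remaining alternatives both counts stayed within 1.5 times. Of 105 named calls 61 were kept after thinning and 66 each at 100 CPM and with all 9 pools. Hk2 turned to 0.15 (log2) with thinned cells and Ccne1 to -0.19 without the highest cells. No cell was over 1% in those 5 lists. No paired analysis was possible because each stage is 1 sample. Depth limits a gene at 0 counts to a level of at most 3 counts over a stage.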
